A study of Mus musculus with 16 samples.

Results

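The germline variable segments of the mouse immunoglobulin loci were followed across 16 liver RNA-seq libraries. The members were chosen by name and abundance: every gene whose symbol starts with Ighv (heavy chain), Igkv (kappa light chain) or Iglv (lambda light chain) and whose counts summed to 50 or more fragments over the 16 libraries. This rule selected 97 of 348 annotated variable segments, among 55471 gene identifiers in all. They comprised 39 Ighv, 55 Igkv and 3 Iglv segments. Of the remaining segments, 112 had fewer fragments and 139 had none. All 130 annotated variable pseudogenes fell outside the rule. The 97 members held 93.6% of all variable segment fragments. Just outside the threshold lay Igkv1-133 with 48 fragments and Ighv8-12 with 45, and just inside lay Ighv1-39, Ighv1-75 and Igkv4-80 with 50 each and Ighv1-78 with 51. Because the rule sums over all libraries, a segment that was abundant in 1 liver could enter on that liver alone, so the abundance of the members is a description and not a result.

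The study asked what antibiotic exposure early in life leaves behind in old mice. Whole liver was compared between mice of 102 weeks without antibiotics (aged control), mice of 102 weeks from the antibiotic-exposed groups PAM I and PAM II, and mice of 12 weeks without antibiotics (young), with 4 livers in each of the 4 groups. The labels give neither the agent, the dose, nor what separates PAM I from PAM II, and they do not state strain, sex, litter or cage. For the young livers, 1 descriptive label speaks of aged mice, and the title, age and group labels, which give young adults of 12 weeks, were followed instead. The p-values below measure the spread between these livers.

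Each developing B cell joins 1 variable (V) segment, with further short segments, to build its heavy chain, and 1 V segment to build a kappa or a lambda light chain. All descendants of that cell carry the same heavy and light V segments, so segment use in bulk RNA reads out which B-lineage cells, above all antibody-secreting plasma cells with their very high immunoglobulin mRNA content, contributed RNA. Liver is not a primary lymphoid organ, but its sinusoids carry circulating B cells and it can host plasma cells and B-1 cells, an innate-like B-cell population known for recurring germline segment pairs. In whole-liver RNA, a change in the number of such cells and a change in immunoglobulin RNA per cell cannot be told apart.

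The 7 segments on which the description turns are shown first, as the germline sequence of the V exon from the GENCODE M21 transcripts on GRCm38, 5′ to 3′ on the coding strand and limited to the last 300 bases where the exon is longer. They are the heavy and light segments that led in the livers labelled PAM I 1 (Ighv14-3 with Igkv6-32) and PAM II 3 (Ighv4-1 with Igkv1-88), a pair known from B-1 cells (Ighv11-2 with Igkv14-126), and the kappa segment that led in the most libraries (Igkv5-39, 6 of 16). Capitals run from the codon of the conserved second cysteine to the end of the segment, the germline start of the third complementarity-determining region, where joining adds its diversity.
Ighv14-3: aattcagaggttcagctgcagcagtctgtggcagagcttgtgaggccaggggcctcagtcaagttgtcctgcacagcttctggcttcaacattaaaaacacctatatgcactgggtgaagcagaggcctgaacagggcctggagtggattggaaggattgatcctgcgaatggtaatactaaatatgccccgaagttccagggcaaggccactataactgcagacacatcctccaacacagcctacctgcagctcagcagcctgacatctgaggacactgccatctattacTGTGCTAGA
Igkv6-32: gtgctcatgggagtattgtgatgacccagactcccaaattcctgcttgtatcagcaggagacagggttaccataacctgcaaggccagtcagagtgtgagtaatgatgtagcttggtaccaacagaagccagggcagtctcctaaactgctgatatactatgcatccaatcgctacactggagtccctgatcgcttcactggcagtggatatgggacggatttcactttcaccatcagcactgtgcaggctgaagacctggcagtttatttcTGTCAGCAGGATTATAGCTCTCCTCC
Ighv4-1: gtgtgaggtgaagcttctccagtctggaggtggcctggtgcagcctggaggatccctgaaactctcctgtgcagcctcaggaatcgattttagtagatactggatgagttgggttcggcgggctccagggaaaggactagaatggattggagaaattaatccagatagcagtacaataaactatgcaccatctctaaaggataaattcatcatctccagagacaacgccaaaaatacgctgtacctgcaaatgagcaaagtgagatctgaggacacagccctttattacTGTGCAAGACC
Igkv1-88: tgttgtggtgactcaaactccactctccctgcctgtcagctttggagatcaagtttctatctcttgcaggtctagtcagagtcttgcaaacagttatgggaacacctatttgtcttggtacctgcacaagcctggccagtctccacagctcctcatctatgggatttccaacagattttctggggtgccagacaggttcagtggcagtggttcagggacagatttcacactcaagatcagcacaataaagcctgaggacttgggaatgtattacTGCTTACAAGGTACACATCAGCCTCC
Ighv11-2: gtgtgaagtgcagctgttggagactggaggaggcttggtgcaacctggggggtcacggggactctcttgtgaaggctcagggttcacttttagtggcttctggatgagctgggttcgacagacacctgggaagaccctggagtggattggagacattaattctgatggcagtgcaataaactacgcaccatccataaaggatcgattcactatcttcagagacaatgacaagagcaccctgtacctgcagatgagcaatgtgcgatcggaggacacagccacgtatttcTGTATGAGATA
Igkv14-126: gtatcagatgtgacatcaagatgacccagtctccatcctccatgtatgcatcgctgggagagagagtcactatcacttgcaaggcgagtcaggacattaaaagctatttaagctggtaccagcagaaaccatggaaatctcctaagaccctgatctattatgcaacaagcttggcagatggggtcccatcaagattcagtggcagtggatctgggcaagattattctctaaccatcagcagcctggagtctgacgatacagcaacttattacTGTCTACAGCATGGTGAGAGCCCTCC
Igkv5-39: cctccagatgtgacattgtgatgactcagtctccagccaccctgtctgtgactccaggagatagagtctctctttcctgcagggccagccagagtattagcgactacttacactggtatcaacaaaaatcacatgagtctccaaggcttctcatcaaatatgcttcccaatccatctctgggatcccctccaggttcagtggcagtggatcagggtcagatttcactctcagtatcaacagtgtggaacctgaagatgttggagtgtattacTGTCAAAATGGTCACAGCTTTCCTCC
The heavy chain stretches lie on the minus strand of chromosome 12, at chr12:114059845-114060144 for Ighv14-3, chr12:113948282-113948581 for Ighv4-1 and chr12:114048241-114048540 for Ighv11-2. On chromosome 6, Igkv6-32 lies at chr6:70074024-70074321, Igkv1-88 at chr6:68862265-68862564 and Igkv5-39 at chr6:69900424-69900721, all on the minus strand, and Igkv14-126 at chr6:67896345-67896642 on the plus strand. The 3 germline heavy segments shown leave 9 to 11 bases after the start of the cysteine codon and these kappa segments leave 26. Among the 3 heavy segments shown, pairwise identity was 68.0% to 77.7%, and among the 4 kappa segments 71.0% to 77.7%. Many members have closer relatives: 25 of 39 Ighv and 32 of 55 Igkv members share at least 95% of bases with another annotated segment. The 3 heavy segments shown are among these 25. The nearest relative of Ighv11-2 is Ighv11-1 (98.7% identity, 1 fragment in all libraries), that of Ighv14-3 is Ighv14-1 (96.1%, 17 fragments) and that of Ighv4-1 is Ighv4-2 (95.8%, 1 fragment). Igkv6-32, Igkv1-88, Igkv14-126 and Igkv5-39 have no relative above 91.6%. Fragments of near-identical segments could be split or lost in counting, so a level of a single segment with such a relative is uncertain.

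Variable segment RNA was more abundant in every aged liver than in any young liver. Summed over the members and given in CPM, counts per 1e+06 fragments with library sizes scaled by the trimmed mean of M values, the level in the 4 young livers was 1.43, 2.1, 4.93 and 2.82. In aged control livers it was 16.3, 10.6, 30.2 and 25.1. PAM I livers had 35.4, 17.1, 70.9 and 148, and PAM II livers had 64.6, 21.8, 25.9 and 13.4. The group means were 2.82 ± 1.52 CPM in young, 20.6 ± 8.77 in aged control, 67.9 ± 58.0 in PAM I and 31.4 ± 22.7 in PAM II (SD, n = 4 each). The young and aged ranges did not overlap, whereas the 3 aged groups overlapped, with the livers PAM I 4, PAM I 3 and PAM II 1 highest. The fragments behind these sums numbered 465 to 6867 per aged library and 47 to 203 per young library. The aged libraries contained 72 to 96 of the 97 segments with at least 1 fragment, and the young libraries 11 to 67. Kappa segments were the most abundant of the 3 loci in every library.

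**Figure D1:**
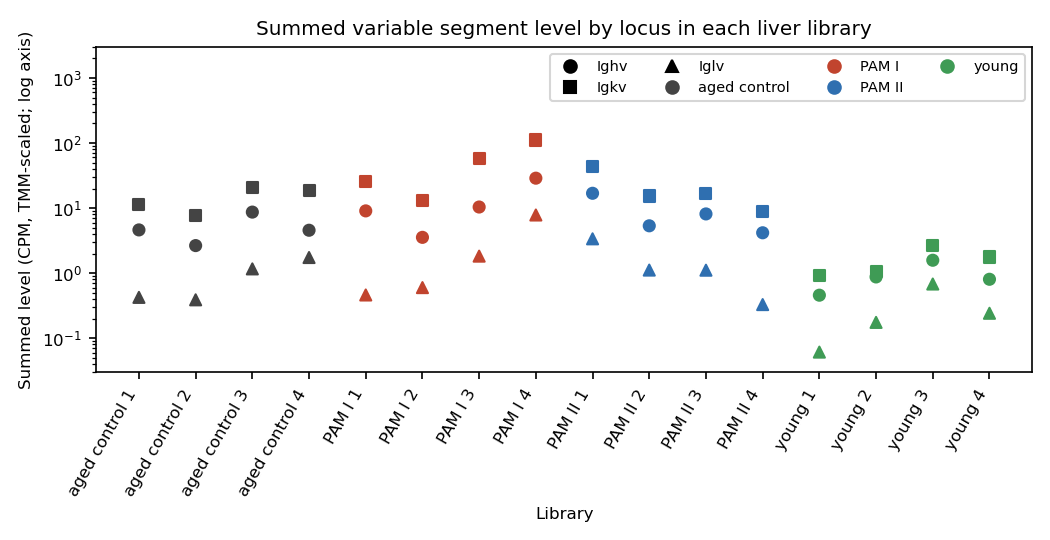
Summed level of the Ighv (circles), Igkv (squares) and Iglv (triangles) members in each of the 16 liver libraries, in TMM-scaled CPM on a log axis, coloured by group. Each locus was lower in the 4 young libraries than in PAM I 3, PAM I 4 and PAM II 1, and the summed level of all members ran from 1.43 to 4.93 CPM in young and from 10.6 to 148 CPM in aged livers.

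The constant chains, which are spliced to the variable segments in the same mRNA, were also higher in aged control than in young livers for Ighm, Igkc and Ighg1. Ighm, the constant region of IgM, was at 58.2, 75.1, 88.2 and 112 CPM in aged control and at 14.3, 31.9, 12.8 and 11.8 CPM in young livers, without overlap. It rose by a log2 fold change of 2.24 ± 0.42 (SE; edgeR quasi-likelihood test, adjusted p = 0.0101). Igkc, the kappa constant region, rose by 3.10 ± 0.69 (edgeR adjusted p = 0.0249) and Ighg1, of IgG1, by 5.08 ± 1.1 (edgeR adjusted p = 0.0202). In total 3 of 11 tested constant chains rose and none fell, against 3.23% of all 17046 genes called in either direction. Igha, of IgA, did not pass (1.54 ± 0.83, edgeR adjusted p = 0.33), and neither did Ighd, of IgD, found on naive B cells (0.49 ± 0.48, edgeR adjusted p = 0.626). The other IgG chains had positive fold changes that did not pass: 3.6 for Ighg2b, 3.40 for Ighg2c and 2.95 for Ighg3 (edgeR adjusted p = 0.0793, 0.118 and 0.0888). The lambda constant chains Iglc1, Iglc2 and Iglc3 had 0.77, 1.37 and 1.85 (edgeR adjusted p = 0.684, 0.316 and 0.186). Ighe, of IgE, was at 0.175 CPM or below in every library, and Iglc4 had no fragment. Per kilobase, Ighm made up 77.7% to 93.0% of heavy constant RNA in the aged livers and 64.1% to 90.6% in the young. Ighd made up 16.6% to 18.1% in 3 young livers and 5.78% in the other, against 1.49% to 6.98% in the aged livers. Among the aged livers Igha was highest in PAM II 1 (11.8%), beside 12.1% in young 3 and 11.1% in young 4, and Ighg1 was highest in PAM II 4 (6.08%). The kappa V to Igkc ratio per kilobase was 26.3% to 48.7% in 15 libraries and 12.8% in young 1. The ratio of heavy V to heavy constant RNA ran from 12.4% in young 1 to 40.6% in aged control 3. Among the aged livers it was lowest in PAM I 2, at 13.2%. The part of this spread in the Ighv levels and diversity was not tested.

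Lists of cell markers gave the context of these levels. The 10 hepatocyte markers summed to at least 94388 CPM in every library, which fits the labelled tissue. Of the 16 genes of the B cell list (Ms4a1, Cd79b and others) and the 14 tested of the plasma cell list, 0 passed the edgeR test between aged control and young. The B cell list summed to 15.3 to 28.4 CPM in young livers and to 19.5 to 99.5 CPM in aged livers. It was highest in PAM I 4, aged control 4 (83.6 CPM) and PAM II 1 (79.8 CPM). The plasma cell list (496 to 902 CPM in aged control, 738 to 826 CPM in young) rests mostly on genes that hepatocytes also express and so says little here. Of 12 T cell genes 1 rose, Cd5, a T cell receptor-associated molecule also carried by B-1a cells (3.13 ± 0.80, edgeR adjusted p = 0.0447), and of 10 hepatocyte genes 1 fell, Serpina1c (-0.98 ± 0.21, edgeR adjusted p = 0.0202). Both were named after their values were seen. The list of Kupffer cell markers, the liver macrophages, was highest in the same livers in which V segments were highest: 1451 CPM in PAM I 3, 1201 CPM in PAM I 4 and 1767 CPM in PAM II 1, against 238 to 837 CPM in the other aged livers. Among those other livers the order did not match. Kupffer markers were at 330 CPM in PAM I 1, 238 in aged control 3 and 837 in aged control 1. The V segment sums of these livers were 35.4, 30.2 and 16.3 CPM. None of the 10 Kupffer cell genes passed between aged control and young. The part of these cell types in the V segment levels was not tested. Skeletal muscle markers, which should be absent from liver, summed to 13.5 to 117 CPM in aged control 2, PAM I 1, PAM I 2 and PAM II 2 to 4, and to 0.789 to 2.34 CPM in the other 6 aged livers, and reached 121 CPM in young 1. Red cell markers summed to 1525 CPM in PAM II 1 and to at most 594 CPM in the other libraries. The part of either in the results was not tested.

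In the liver PAM I 1 the repertoire was dominated by 1 heavy and 1 light segment. It had 293 Ighv14-3 fragments among 432 Ighv fragments, a share of 67.8% (95% Wilson interval 63.3 to 72.1, counting error only, as for all intervals here). It had 967 Igkv6-32 fragments among 1232 Igkv fragments, a share of 78.5% (76.1 to 80.7). In the other 15 libraries Ighv14-3 had 0 to 7 fragments and Igkv6-32 had 0 to 27. As levels, Ighv14-3 stood at 6.14 CPM in PAM I 1 and at 0.153 CPM or below elsewhere, and Igkv6-32 at 20.3 CPM against 0.583 CPM or below elsewhere. This single liver supplied 88.5% and 90.1% of all fragments of these segments.

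In the liver PAM II 3 the heavy chain locus alone was dominated by 1 segment. Ighv4-1 had 188 of 374 Ighv fragments, 50.3% (45.2 to 55.3), and Igkv1-88 had 215 of 765 Igkv fragments, 28.1% (25.0 to 31.4). Per kilobase, the leading kappa share was higher in PAM I 2 (Igkv3-2, 32.7%) and PAM II 2 (Igkv5-39, 30.7%) than in PAM II 3 (28.3%). Elsewhere Ighv4-1 had 0 to 25 fragments and Igkv1-88 had 0 to 17. The liver aged control 1 had 58 Ighv2-2 and 66 Igkv13-85 fragments. Per kilobase these were 26.4% of its Ighv and 12.4% of its Igkv RNA, against at most 5.90% and 0.89% in any other library. Shares from here on are per kilobase of exon, so that segments of different length can be compared. Bulk counts do not tie a heavy to a light segment within a cell, so each pairing is a coincidence in 1 library and not an observed antibody.

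**Figure D2:**
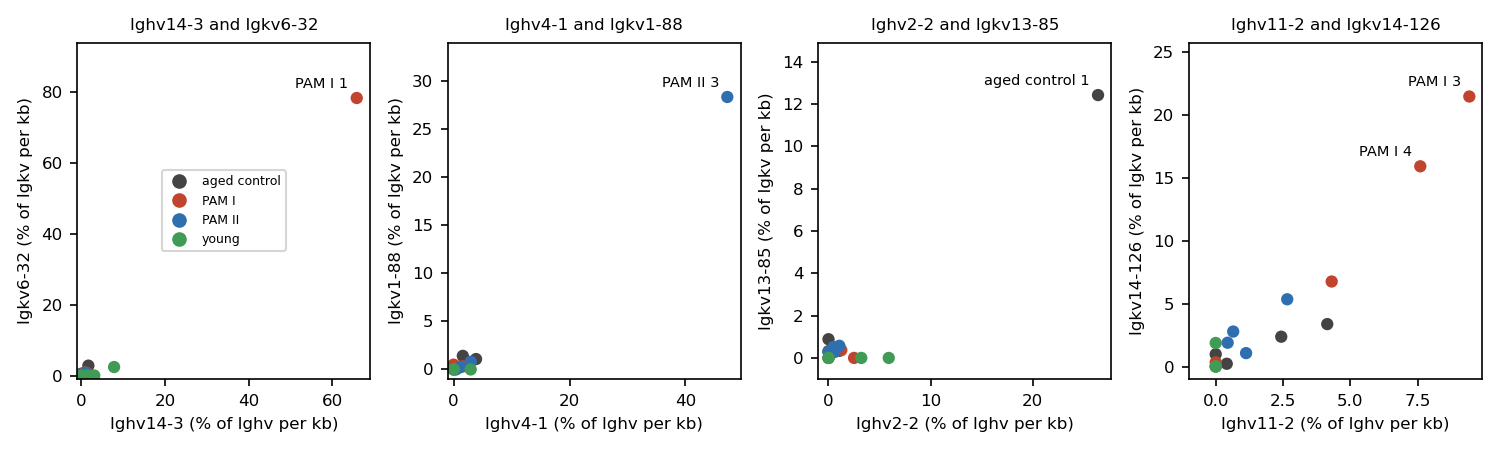
Share of the Ighv locus (x axis) against share of the Igkv locus (y axis), both in percent per kilobase, for 4 heavy and light segment pairs; each point is a library, coloured by group. The first 3 pairs are high together in a single liver (PAM I 1, PAM II 3 and aged control 1), and the Ighv11-2 and Igkv14-126 pair is highest in PAM I 3 and PAM I 4.

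The fourth pair, Ighv11-2 with Igkv14-126, is known from B-1 cells, where it encodes antibodies to phosphatidylcholine. Igkv14-126 was at 0.262, 0.251, 0.0438 and 0.178 CPM in aged control livers. In PAM I livers it was at 0.0839, 0.855, 12.3 and 17.3 CPM. In PAM II livers it was at 1.2, 0.81, 0.174 and 0.164 CPM, and in young livers it was at 0.0486 CPM in 1 library (2 fragments) and had no fragment in the other 3. The livers PAM I 3 and PAM I 4 stood far above the rest, with 593 and 800 fragments, and PAM I 1 lay inside the control range. Ighv11-2 was highest in the same livers, with 59 and 127 fragments against 0 to 9 elsewhere and 0 in all 4 young libraries. The pair took 9.42% of Ighv and 21.5% of Igkv RNA in PAM I 3, and 7.60% and 15.9% in PAM I 4. In the liver with the next highest Igkv14-126 share, PAM I 2, they took 4.31% and 6.76%. The heavy share and the light share ranked first and second among the 16 libraries in the same 2 livers.

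Other segments known from B-1 cells did not follow this pattern. Ighv12-3 and Igkv4-91, a second pair of the phosphatidylcholine response, were at 0 to 0.172 CPM and 0 to 0.808 CPM, with PAM II 1 highest for both. Ighv7-1 and Igkv7-33, which form the T15 antibody to phosphorylcholine, were at 0.0658 CPM or below in every library. Ighv12-3, Ighv7-1 and Igkv7-33 were below the threshold of 50 fragments and are not members.

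Diversity was summarised as the effective number of segments, the exponential of the Shannon entropy of the per-kilobase shares, which equals the number of segments if all were used equally. For Ighv it was 16.0, 17.6, 26.6 and 19.7 in aged control livers. In PAM I it was 5.20, 19.7, 19.5 and 23.0, in PAM II 28.3, 26.5, 10.4 and 21.4, and in young livers 1.76, 11.1, 20.4 and 14.6. For Igkv it was 20.4, 18.8, 19.5 and 38.7 in aged control and 3.43, 16.7, 19.5 and 24.3 in PAM I. In PAM II it was 24.6, 20.3, 21.2 and 27.2, and in young livers 6.92, 18.2, 30 and 25.5. Group means for Igkv were 24.3 ± 9.60 in aged control, 16.0 ± 8.96 in PAM I, 23.3 ± 3.19 in PAM II and 20.1 ± 10.1 in young (SD, n = 4 each), and the groups overlapped at both loci. The lowest aged values belonged to PAM I 1 at both loci, and at the heavy chain locus PAM II 3 came next. With the leading segment removed, PAM I 1 had 19.2 effective Ighv and 26.9 effective Igkv segments, and PAM II 3 had 22.7 and 30.9. These values lay within those of the other aged livers treated alike (18.7 to 28.4 and 20.4 to 39.5).

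**Figure D3:**
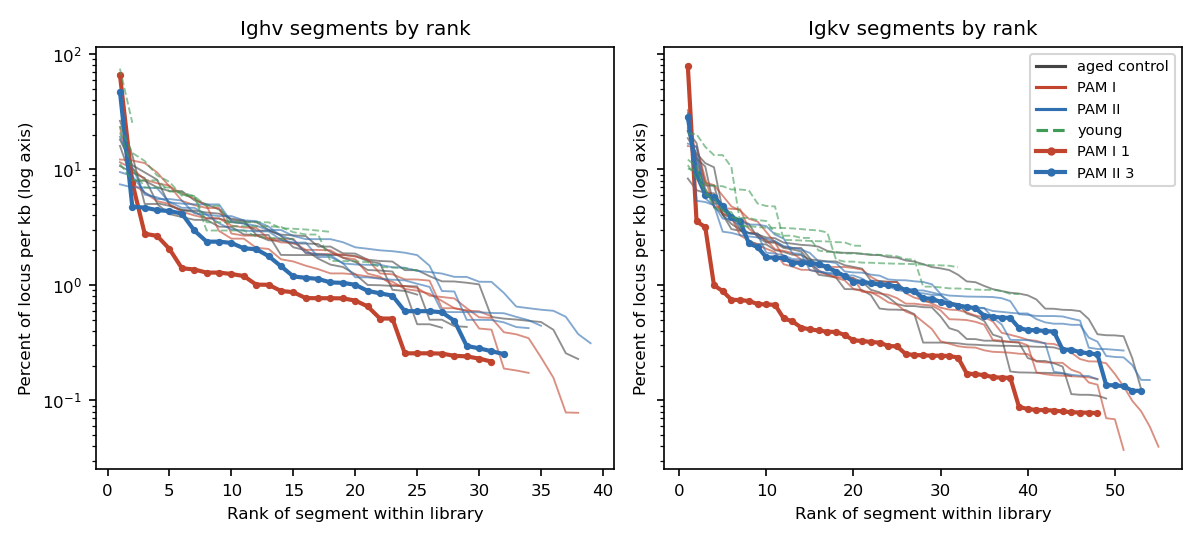
Segments of each library ordered by their share of the locus (percent per kilobase, log axis) for Ighv (left) and Igkv (right); lines are coloured by group, young libraries are dashed, and PAM I 1 and PAM II 3 are drawn thick. In PAM I 1 the leading segments hold 65.9% of Ighv and 78.4% of Igkv, and at rank 3 its curve lies below those of all other aged libraries at both loci.

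The effective number depends on how many fragments were counted. Young libraries had 15 to 65 Ighv and 30 to 110 Igkv fragments, and the low values of young 1 rest on the fewest (15 and 30 fragments). Drawn down to 15 Ighv fragments, aged control livers gave an expected 9.49 to 11.2 segments, PAM I livers 5.17 to 10.6, PAM II livers 7.36 to 11.6 and young livers 2 to 11.3. At 30 Igkv fragments the expected numbers were 14.7 to 20.4, 6.50 to 16.2, 15.8 to 17.7 and 8 to 20.1, in the same order of groups. At matched depth 3 of 4 young livers gave 9.30 to 11.3 Ighv and 17.8 to 20.1 Igkv segments, inside the aged range. The fourth, young 1, gave 2 and 8, the lowest Ighv value of all libraries. With so few fragments and 1 young liver apart from the others, a difference in diversity by age was not settled. PAM I 1 (432 Ighv fragments) and PAM II 3 (374) each had more Ighv fragments than at least 6 of the other 11 aged libraries.

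**Figure D4:**
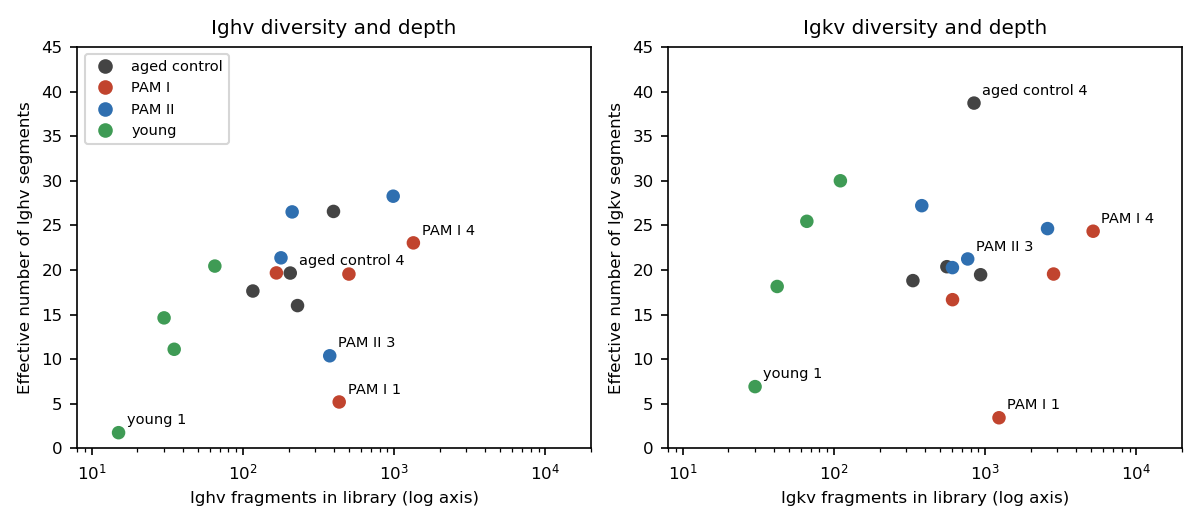
Effective number of Ighv (left) and Igkv (right) segments against the number of fragments of that locus in the library (log axis), 1 point per library, coloured by group. PAM I 1 has 5.20 effective Ighv segments from 432 fragments and 3.43 effective Igkv segments from 1232 fragments, below all other aged libraries, while aged control 4 has the highest Igkv value, 38.7.

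Which segment led varied from liver to liver. Across the 16 libraries 9 different Ighv segments led, 8 of them in aged livers. Ighv1-53 led in 4 livers, at 18.1% in aged control 2, 16.0% in aged control 4, 23.3% in PAM I 2 and 11.6% in PAM I 4. Ighv1-58 led in PAM II 1 (9.49%) and PAM II 4 (19.2%) and had no fragment in 9 libraries. Ighv5-17 led in aged control 3 (10.7%) and young 3 (11.2%). Ighv6-3 led in PAM I 3 with 12.2%, followed by Ighv1-80 with 12.0%, and Ighv5-6 led in PAM II 2 with 7.43%, the lowest leading share of any library. Other segments high on average were used more evenly: Ighv1-26 took 2.1% to 8.16% and Ighv9-3 1.81% to 5.34% in every aged liver. Ighv1-9 took 0% to 7% and Ighv1-64 took 0% to 9.43% in the aged livers, each without a fragment in 1 of them. Ighv3-6 had fragments in all 12 aged and in none of the young libraries.

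**Figure D5:**
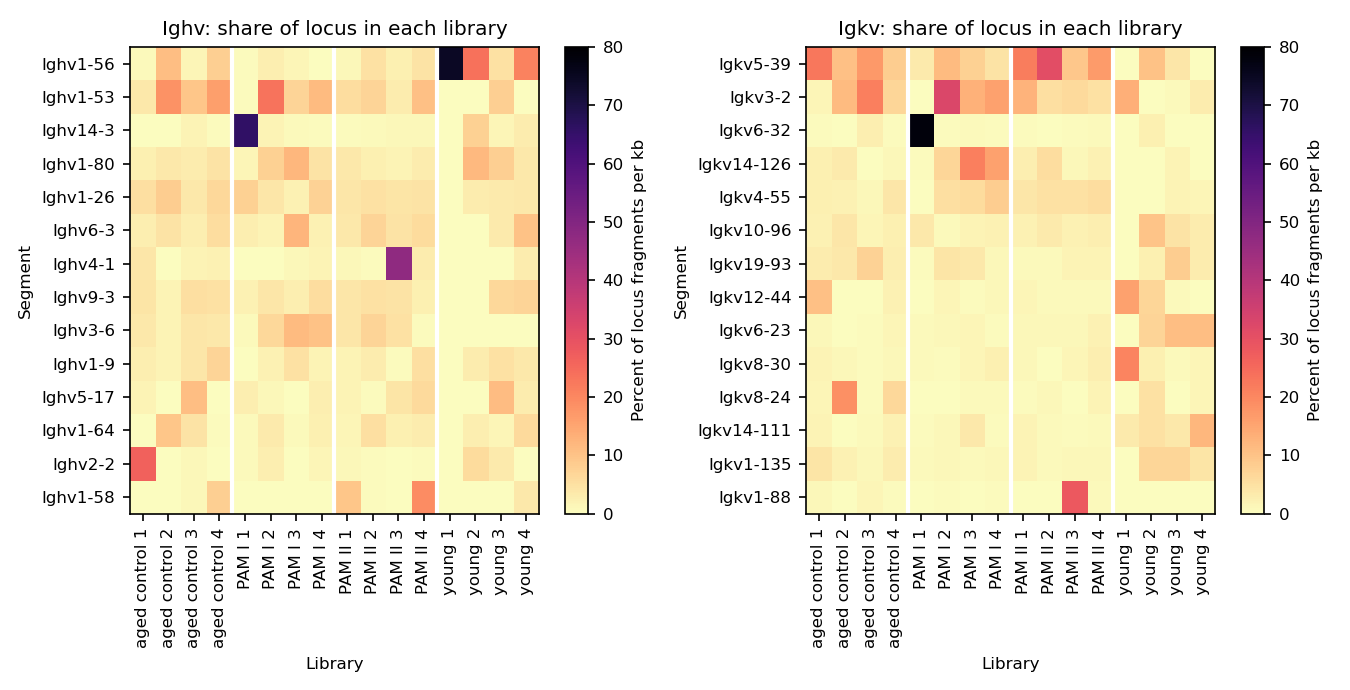
Share of each locus per kilobase (colour, in percent) for the 14 Ighv and 14 Igkv members with the highest mean share, in each library; white lines separate the 4 groups. The darkest cells mark Ighv14-3 and Igkv6-32 in PAM I 1, Ighv4-1 in PAM II 3 and Ighv1-56 in young 1, while Igkv5-39 is used across most aged libraries.

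At the kappa locus 9 different segments led across the 16 libraries, 6 of them in aged livers. Igkv5-39 led in 6 of the 16 libraries and took 3.16% to 30.7% of Igkv RNA in every aged liver. Igkv3-2 led in aged control 3 (21.5%) and PAM I 2 (32.7%), and Igkv14-126 led in PAM I 3 and PAM I 4. Igkv8-24 led in aged control 2 with 18.7%, where it had 62 of its 217 fragments. Igkv4-55 took 1.14% to 8.32% in the 11 aged livers other than PAM I 1, where it took 0.0783%. Igkv10-96 took 0.843% to 3.98% and Igkv19-93 took 0.327% to 7.27% in the aged livers. Igkv12-44 was highest among aged livers in aged control 1 (10.6%). Leaders in the young livers other than Igkv5-39 in young 2 were Igkv8-30, Igkv6-23 and Igkv14-111, each with at most 12 fragments.

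Ighv1-56 was the only 1 of the 39 Ighv members, and 1 of 4 among all members, with fragments in all 16 libraries. It had 2 to 16 fragments in each of the 16 libraries, young ones included (11, 8, 3 and 6), and led the Ighv locus in young 1, 2 and 4. Its level was 0.195 ± 0.146 CPM in aged control and 0.192 ± 0.109 CPM in young livers (SD, n = 4 each). Summed over the groups there were 35 fragments in aged control and 28 in young, a ratio of 1.03 after scaling for depth (95% exact interval 0.608 to 1.76). The fitted log2 fold change was 0.03 ± 0.56 (edgeR adjusted p = 0.986). Its share of Ighv, in contrast, was 0.236% to 10.9% in aged livers and 4.83% to 74.7% in young livers, with overlap.

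At the lambda locus the 3 segments were all members. Iglv1 led in 15 of 16 libraries with 42.2% to 100% of lambda RNA over all libraries, and Iglv3 led in PAM II 4 on 8 fragments. Iglv2 reached 42.6% in PAM I 4 (149 fragments). Kappa fragments outnumbered lambda fragments by 10.8 to 56.0 times in aged livers, highest in PAM I 1, and by 3.93 to 15 times in young livers.

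By family, Ighv1, the largest (21 members of 93 annotated), took 44.8% to 73.3% of Ighv RNA in aged control livers and 19.4% at least in the PAM groups, the lowest being PAM I 1. Igkv families were more even, with means over libraries of 14.5% for Igkv3, 14.1% for Igkv4, 12.7% for Igkv5 and 12.4% for Igkv6. The Ighv members were also split into 4 blocks of 9 or 10 by position along chromosome 12, and each block held a median of 19.2% to 28.7% of Ighv RNA in the aged livers. For Igkv, in 4 blocks of 13 or 14 along chromosome 6, the medians were 14.9% to 27.4%.

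Segment use was about as alike between livers of different aged groups as within a group. The overlap of shares (the sum over segments of the smaller of both shares) had a median of 50.4% for Ighv over the 18 pairs within aged groups and 47.7% over the 48 pairs between aged groups. For Igkv the medians were 53.1% and 48.7%. Within PAM I the Igkv median was 36.3% and the lowest pair was at 16.4%, and within PAM II it was 59.2%. These pairs share livers and are given as a description.

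Concentration of a segment in 1 liver is given as a description, since the rule on summed fragments lets such segments in. For 26 of 97 members 1 library held most of the fragments, and no share over other genes was computed. The largest contributor was PAM I 4 for 42 members, PAM II 1 for 18, PAM I 3 for 13 and a control liver for 16, and a young liver for none. These counts stand beside unequal totals. PAM I 4 held 6867 of the 23369 member fragments, and the young livers held 47 to 203 each. Fragments occurred in all 12 aged libraries for 32 members and in all 16 libraries for 4, while 14 had none in any young library.

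The comparison of aged control with young livers addressed age. For fold changes, 47 members passed the filter on low counts (12 Ighv, 33 Igkv and 2 Iglv). A member could pass through the group in which it was high, the PAM groups included. With only aged control and young livers fitted, 3 members passed it. All 4 aged control livers lay above all 4 young livers for 16 of these 47, against 4.83% of all 17046 tested genes. Without the filter this held for 24 of the 97 members. No share over all genes was computed for that count, so it is a description and not a result about age. A further fit kept all genes with 50 or more summed counts, the same limit that chose the 97 members. There 93 of the 97 had a positive fold change, with a median log2 of 2.71 against 0.002 over all genes. The aged livers supplied most of the fragments that chose the members. The rule itself could favour this direction, which is therefore given as a description. Of the 47 tested, 2 rose and none fell at an edgeR adjusted p under 0.05, against 327 of all genes, or 1.92%, that rose. The fitted fold change was positive for 46 of 47 with a median log2 of 2.80, against -0.01 over all genes, and 24 of the 47 had an unadjusted p under 0.05, against 19.0% of all genes. The same limit of the rule applies to the direction of these 47 members.

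Igkv5-39 stood at 2.44, 0.754, 3.27 and 1.47 CPM in aged control livers and at 0, 0.0998, 0.0971 and 0 CPM in young livers. The groups did not overlap. It rose by a log2 fold change of 5.18 ± 0.99 (SE; edgeR adjusted p = 0.0105), with 369 fragments against 8 (38.0 times after scaling for depth, 95% exact interval 19.1 to 88.6). Igkv3-4 had 10, 45, 6 and 51 fragments in aged control and 0, 0, 1 and 0 in young livers. It rose by 6.06 ± 1.46 (edgeR adjusted p = 0.0347), but with 1 young fragment in all the ratio is loose (92.2 times, 16.2 to 3672). This call was lost when aged control 2, aged control 4 or any of the young livers was left out, with an adjusted p of up to 0.189 over all settings tried. Igkv8-24 (4.96 ± 1.37, edgeR adjusted p = 0.0594) and Ighv1-53 (3.90 ± 1.2, edgeR adjusted p = 0.0904) did not pass. The 2 calls became 14 with DESeq2, which added Igkv8-24 and Ighv1-53 among others, and 0 with limma-voom. Over all genes DESeq2 called 1343, against 551 with edgeR. The Igkv5-39 call was lost with limma-voom and when aged control 4 and young 1 were left out together.

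No member differed between the aged groups in the edgeR test. PAM I against aged control, PAM II against aged control, PAM II against PAM I, and both PAM groups together against aged control each gave 0 calls, and so did all genes (0% of 17046). The first, second and last of these share the control livers. At an unadjusted p under 0.05, 16 of 47 members were higher in PAM I than in aged control and none lower, against 9.40% of all genes in either direction. Members could pass the filter through the PAM I livers, so the direction of this count is a description. With only PAM I and aged control livers fitted, it was 6 higher and none lower of 28 tested (9.17% of all genes). Without PAM I 4 it was 5 higher and 1 lower of 50 tested (3.55% of all genes), and with limma-voom 2 higher and 1 lower of 47 (19.1% of all genes). For PAM II against aged control it was 1 member, lower (2.73% of all genes), for PAM II against PAM I 5, 1 higher and 4 lower (4.56%), and for both PAM groups 4, all higher (5.64%). The median log2 fold change over the 47 members was 1.33 for PAM I and 0.39 for PAM II against aged control, beside 0.02 and 0.01 over all genes. Both medians rest on single livers. Without PAM I 4 the PAM I median was 0.16, with 28 of 50 members positive and 22 negative, and without PAM II 1 the PAM II median was -0.07, with 24 positive and 26 negative. DESeq2 called 1 member in PAM I, among 16 genes in all, 0 in the other 3 comparisons, and limma-voom called 0 in all.

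The member with the smallest p was Igkv14-126 in PAM I against aged control, with a log2 fold change of 5.35 ± 1.2 (edgeR adjusted p = 0.506). It is the member called by DESeq2 (5.37, adjusted p = 0.0312). Its PAM I livers spanned 0.0839 to 17.3 CPM and overlapped the controls. Igkv6-32 (4.88 ± 1.36, edgeR adjusted p = 0.506) rests on PAM I 1, without which the values of the other 3 livers were 0.0642 to 0.583 CPM against 0.0229 to 0.57 CPM in aged control and the log2 fold change was 1.08 (edgeR adjusted p = 0.668). Igkv4-55 was at 0.16 to 0.779 CPM in aged control and at 0.021, 0.706, 3.59 and 9.54 CPM in PAM I (3.25 ± 1, edgeR adjusted p = 0.506).

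For PAM II against aged control the smallest p values belonged to Igkv8-24 (-2.19 ± 1.02), Igkv19-93 (-1.60 ± 0.82) and Igkv1-117 (2.26 ± 1.22), each with an edgeR adjusted p of 1. Igkv8-24 stood at 0.161, 1.42, 0.0658 and 1.16 CPM in aged control and at 0.258, 0.152, 0.0435 and 0.141 CPM in PAM II, with overlap. Igkv8-19 was among the 3 smallest for both PAM groups together (2.47 ± 1.07, edgeR adjusted p = 0.86). The constant chains behaved likewise: Ighm was at 186, 128, 228 and 514 CPM in PAM I and at 212, 149, 104 and 120 CPM in PAM II. Against aged control its log2 fold change was 1.66 ± 0.41 (edgeR adjusted p = 0.506) for PAM I and 0.81 ± 0.40 (edgeR adjusted p = 1) for PAM II. All 4 PAM I livers lay above the highest aged control liver, at 112 CPM, but the change did not pass after adjustment over all genes.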

How the data were processed

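Per the file headers, the deposited counts are fragments per gene from featureCounts 1.5.0-p2 with strand setting 1, over exons of the Ensembl 99 annotation of GRCm38. Per the submitters' processing notes, reads were trimmed with Trimmomatic 0.38 and aligned with HISAT2 2.1.0 to mm10. Whether the library kit fits that strand setting is not given in the sources used here. The recorded command gives no option for reads that map to several places, and whether reads across V-D-J junctions aligned was not tested. The 16 libraries held 36968993 to 52090914 counted fragments, of which 47 to 6867 were in members. Symbols came from the GENCODE M21 annotation, and 241 of 55471 identifiers had none.

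The members and marker lists were chosen with earlier results of these data known. CPM used edgeR's TMM factors. Genes kept by filterByExpr (17046) were fitted over all 4 groups with edgeR 4.0.16 (glmQLFit, robust), with Benjamini-Hochberg adjustment over all genes tested and a threshold of 0.05. The procedure was run on simulated counts in which genes drawn at random from all those kept were changed. That simulation was not set to imitate the variable segments, so it does not speak to calls on members. Alternatives used DESeq2 1.42.0, limma 3.58.1 (voom with quality weights), other scalings and filters, only the compared groups, and each library left out in turn. Leaving out PAM I 1 with PAM II 3 was added after seeing the data. Shares were per kilobase of exon. Intervals cover counting error only. Named genes were the 12 Ighv, 10 Igkv and 3 Iglv members with the highest mean share, each library's leading segments, up to 8 called members per comparison and direction (or the 3 with the smallest p), the B-1 segments, the constant chains, and up to 4 genes of each other list by mean CPM. Other named genes were chosen after their values were seen, among them Igkv13-85, the light segment second in aged control 1. No p-value was computed for sums, shares or diversity. Promoters and recombination signals were not analysed here.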

Additional observations from a re-analysis of the deposited data

Results flagged for a closer look

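In all, 104 groups of 4 libraries were examined (26 measures in 4 groups). Of these, 24 had a library whose gap to its nearest neighbour exceeded Dixon's 95% critical share of the group's range. About 1 in 20 groups of normal values would exceed it. Many of these measures are low counts, and a group with fragments in 1 library alone exceeds it by construction. The number of flags is therefore not compared with that rate. Levels are in CPM. The leading heavy segments of 3 livers and a kappa segment beside each were set apart in this way: Ighv14-3 at 6.14 and Igkv6-32 at 20.3 in PAM I 1, Ighv4-1 at 4.09 and Igkv1-88 at 4.68 in PAM II 3, and Ighv2-2 at 1.17 and Igkv13-85 at 1.33 in aged control 1. Since these segments were picked for those livers, their flags add nothing.

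Further libraries far above the other 3 of their group were PAM II 1 for Igkv3-2 (5.76), Ighv5-9-1 (1.67), Igkv12-44 (0.636) and Ighv2-2 (0.172), PAM I 4 for Iglv2 (3.21), PAM I 3 for Igkv3-4 (0.995), and aged control 3 for Igkv6-32 (0.570) and Ighv14-3 (0.153). In aged control 4 the effective number of Igkv segments was 38.7, against 18.8 to 20.4 in the other 3 controls. The kappa to lambda fragment ratio of PAM II 4 was 27.1. It rests on 14 lambda fragments.

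The remaining 8 flags rest on 1 to 5 fragments in 1 library and none in the rest of its group, which is at the limit of counting. They are Igkv6-32 in young 2 (0.0250), Ighv4-1 and Ighv1-58 in young 4 (0.0268 each), Igkv14-126 (0.0486), Ighv1-53 (0.121) and Igkv3-4 (0.0243) in young 3, Ighv1-58 in PAM I 4 (0.0216) and Ighv5-9-1 in aged control 3 (0.0219).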

How the results depend on the processing

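The count of 2 members that rose from young to aged control became 14 with DESeq2 and 0 with limma-voom. The count was 1 of only 3 members tested when the compared groups alone were fitted. Without aged control 4 and young 1 together it was 0 of 59. It ranged from 1 to 3 when 1 library was left out. Igkv5-39 kept its direction in all 17 settings run, and lost its call with limma-voom (adjusted p = 0.112) and without both aged control 4 and young 1 (adjusted p = 0.0755). Igkv3-4 lost its call in 8 of 16 settings. The PAM comparisons gave 0 calls in every setting run but DESeq2, which gave 1 for PAM I. The causes were not tested.

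Restricting the sums to segments with at least 500 fragments (6 Igkv and 0 Ighv segments) lowered the mean summed level to 5.23 CPM in aged control and 0.376 CPM in young. It lowered the effective number of Igkv segments to 3.42 in aged control, 3.27 in PAM I, 3.84 in PAM II and 2.57 in young, since fewer segments enter, and gave no Ighv value. Including all segments with at least 1 fragment raised the effective number of Ighv segments to 29.3, 25.2 and 31.9 in aged control, PAM I and PAM II, and of Igkv to 27.8 in PAM II. The inverse Simpson index gave 14.4 for Ighv in aged control and 11.4 for Igkv in PAM II. The expected number at a common depth gave 10.3 and 10.2 for Ighv in aged control and PAM II, and 16.5 for Igkv in PAM II. Leaving out 1 library moved the PAM I mean summed level between 41.1 and 84.8 CPM (without PAM I 4 and PAM I 2). No paired analysis was possible because the sample numbers in the labels run through all groups. Depth limits the young livers, with 47 to 203 variable segment fragments.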
